A study of Mus musculus with 14 samples.

Results

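The genes described here are 9 members of the interleukin-1 family and of the inflammasome, taken by symbol from the 14329 genes of the deposited values: the cytokine genes Il1a, Il1b and Il18, the inhibitors and receptor subunit Il1rn, Il1r2 and Il1rap, and the inflammasome genes Nlrp3, Pycard and Casp1. All 9 were found, and 8 of the 9 reached the minimum of 10 reads in 7 of 14 libraries. Il1r2 did not reach it and was fitted apart. RNA-seq was made from 2000 microglia per library, taken from the dorsal horn of the spinal cord by a sort for low CD45 with CD11b and CX3CR1. The mice were 6 months old, at day 5 of the serum transfer (ST) model. Wild-type (WT) C57BL/6 mice and TASTPM mice received arthritogenic serum of K/BxN mice (K/BxN ST) or control serum of KRN/C57 mice (Control ST). TASTPM mice are heterozygous for transgenes driven by the murine Thy-1 promoter, among them human amyloid precursor protein with the Swedish mutation, and WT mice carry no transgene. There were 4 WT K/BxN ST, 3 WT Control ST, 4 TASTPM K/BxN ST and 3 TASTPM Control ST libraries. The study's methods count replicates as individual mice and the labels do not name the animal of a library. Reads of Xist alone were over 0.001% in 5 libraries, those of Y-linked genes alone in 7, and both were over it in 2, replicate 3 of WT Control ST and replicate 3 of TASTPM Control ST. Replicates 1 and 2 had Y-linked reads alone in WT Control ST and Xist alone in TASTPM Control ST, so groups were unbalanced for these reads. As the labels name no animal, the p-values measure only the spread between these libraries.

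Interleukin-1α and interleukin-1β signal through a shared receptor, whose accessory chain is the product of Il1rap, and interleukin-18 has a receptor of its own. The precursor of interleukin-1β, which has no signalling activity, and that of interleukin-18 are cut by caspase-1, the product of Casp1, once a sensor such as NLRP3 has assembled with the adaptor ASC, the product of Pycard, into an inflammasome. Macrophages, microglia, monocytes and neutrophils make members of this family, and interleukin-1β is well known for its part in sensitising dorsal horn neurons in inflammatory pain.

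Libraries held 14223015 to 20239175 reads on genes, and 1 read was worth 0.838 to 1.19 normalized counts. The 8 microglia markers took 4.11 to 5.21% of the reads in 10 libraries. In the other 4, replicates 1 and 2 of WT K/BxN ST and replicates 1 and 2 of TASTPM K/BxN ST, they took 1.38 to 3.30%. The 10 classical monocyte markers, all of them in the deposited values, summed to 2.20 to 4.12% of the reads in these 4 libraries and to 0.0512 to 0.138% in the other 10, although the gate of the sort was set on cells negative for Ly6C and CCR2. Of 14 neutrophil markers 12 were present, and they summed to 1.25 to 1.40% in 3 of the 4 libraries, to 0.0629% in WT K/BxN ST replicate 2 and to 0.0243 to 0.0710% elsewhere. The defining neutrophil gene Ly6g was at 440 to 868 normalized counts in those 3 libraries and at 0 in WT K/BxN ST replicate 2. In that replicate Mmp8 was at 3245, against at most 60.0 in the other 10. Csf3r, which filled much of the sum outside the 3, was at 3684 to 10517 in all 14 libraries. The rest of the list was at 0 to 143 in that replicate. The summed border-associated macrophage markers took 0.0697 to 0.210% in the 4 and at most 0.0116% in the other 10. F13a1, at 10358 to 32194 normalized counts in the 4, Ms4a7, Pf4 and Cbr2 were higher in each of the 4 than elsewhere. Mrc1, Cd163 and Lyve1 overlapped, with Lyve1 highest, at 476, in TASTPM Control ST replicate 2. Of 5 dendritic cell markers 4 were present, and they summed to 0.00462 to 0.0467% and at most 0.00134%. Cd209a, at 440 to 6678 in the 4, Flt3 and Clec9a were higher in each of the 4 than elsewhere. Zbtb46 was at 4.43 to 132 in the 4, within its 0.838 to 223 in the other 10. All 4 libraries high in monocyte markers were among the 7 with reads of Y-linked genes alone. The 2 WT K/BxN ST libraries left without them had reads of Xist alone and the WT controls held Y-linked reads, so that serum and sex-linked reads cannot then be told apart in WT. The part of these markers in the results was not tested, and the log2 fold changes that they move with are given with and without these 4 libraries. In such bulk RNA, fewer cells of a type and less RNA per cell cannot be told apart.

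The genes Il1a and Il1b lie side by side on chromosome 2 of the GRCm39 assembly, on the minus strand. Il1a spans chr2:129140291-129152098 and Il1b chr2:129206490-129213059, with 54.4 kb between them. Il1rn is on the same chromosome at chr2:24226865-24241506. The others are at chr1:40113239-40164391 (Il1r2), chr16:26400350-26548880 (Il1rap), chr9:50466081-50493633 (Il18), chr9:5298508-5307290 (Casp1), chr11:59432394-59457782 (Nlrp3) and chr7:127588558-127593039 (Pycard). All 9 are annotated as protein-coding. The library kit did not keep strand, so reads in the 95 exonic bases that Il1b shares with its antisense gene Il1bos, and in the 477 that Il1a shares with Gm14023, cannot be told apart. Il1rap, Pycard and Casp1 share exonic bases with 1 gene each, and Il18, Il1rn, Il1r2 and Nlrp3 with none.

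The 250 bases before the annotated start of the canonical transcript are shown for 3 members, the adjacent pair Il1b and Il1a, and Il1r2. The balance of Il1b to Il1a differed in the 4 libraries high in monocyte markers, and Il1r2 had the widest spread of levels. The bases are read on the strand of the gene from GRCm39, and capitals mark motif matches.
Il1b, chr2:129213060-129213309, minus strand: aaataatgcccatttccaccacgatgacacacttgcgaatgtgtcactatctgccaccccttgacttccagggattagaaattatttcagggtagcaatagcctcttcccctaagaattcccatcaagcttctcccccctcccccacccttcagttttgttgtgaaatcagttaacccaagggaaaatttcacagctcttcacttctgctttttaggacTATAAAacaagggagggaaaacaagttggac
Il1a, chr2:129152099-129152348, minus strand: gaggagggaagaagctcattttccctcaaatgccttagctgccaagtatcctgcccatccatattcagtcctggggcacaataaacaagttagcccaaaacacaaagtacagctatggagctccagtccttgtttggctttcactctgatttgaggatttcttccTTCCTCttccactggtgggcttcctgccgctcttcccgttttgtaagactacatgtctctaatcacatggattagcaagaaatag
Il1r2, chr1:40123608-40123857, plus strand: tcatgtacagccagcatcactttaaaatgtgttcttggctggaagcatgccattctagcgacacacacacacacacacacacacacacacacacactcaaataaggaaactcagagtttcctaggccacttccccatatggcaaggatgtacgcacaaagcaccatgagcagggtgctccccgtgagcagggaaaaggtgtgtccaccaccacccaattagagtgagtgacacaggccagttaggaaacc
The motifs searched on both strands were the TATA box TATAAA, the core GAGGAA bound by PU.1, an AP-1 motif TGANTCA, a C/EBP motif TTGCNNAA and the IRF and kappa B motifs. The Il1b window held the TATA letters at bases -31 to -26 from the start, and 11.9% of the 21770 windows of protein-coding genes with the same length held them at any position on either strand. The Il1a window held the PU.1 core, which 22.9% of all windows and 5 of the 9 members held. The Il1r2 window held none of the 6. Of the other motifs, AP-1 was found in Il1rn alone among the members and in 6.17% of all windows, and C/EBP in Pycard alone and in 9.34%. IRF and kappa B letters were in 0 of the 9 member windows, against 3.32% and 4.23% of all windows.

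Levels of the members differed widely from each other. Per kb of exon, in normalized counts, the median over the 14 libraries was highest for Pycard at 483, followed by Il1a at 348 and Casp1 at 315. Il18 stood at 142, Nlrp3 at 70.8, Il1b at 62.3, Il1rap at 22.2, Il1rn at 11.5 and Il1r2 at 0.652. In 8 of the 8 pairs of neighbours in this order the ranges over the libraries overlapped. Il1rap has by far the longest annotated exons, 15.3 kb in all, and its place rests on that length. Across libraries the members fell into 2 kinds. The within-group SD on the log2 scale was 0.241 for Pycard, 0.432 for Il18, 0.448 for Casp1, 0.639 for Il1rap, 0.707 for Il1a and 0.718 for Nlrp3, around the median of 0.612 over all genes tested. It was 2.94 for Il1b, 3.96 for Il1rn and 3.97 for Il1r2, which was higher than in 97.5%, 99.7% and 99.7% of tested genes. Ordered by their means, the 4 groups gave 27 neighbouring pairs over the 9 members, and in 0 of the 27 did the means lie further apart than the larger of the 2 SDs or the values fail to overlap.

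**Figure D1:**
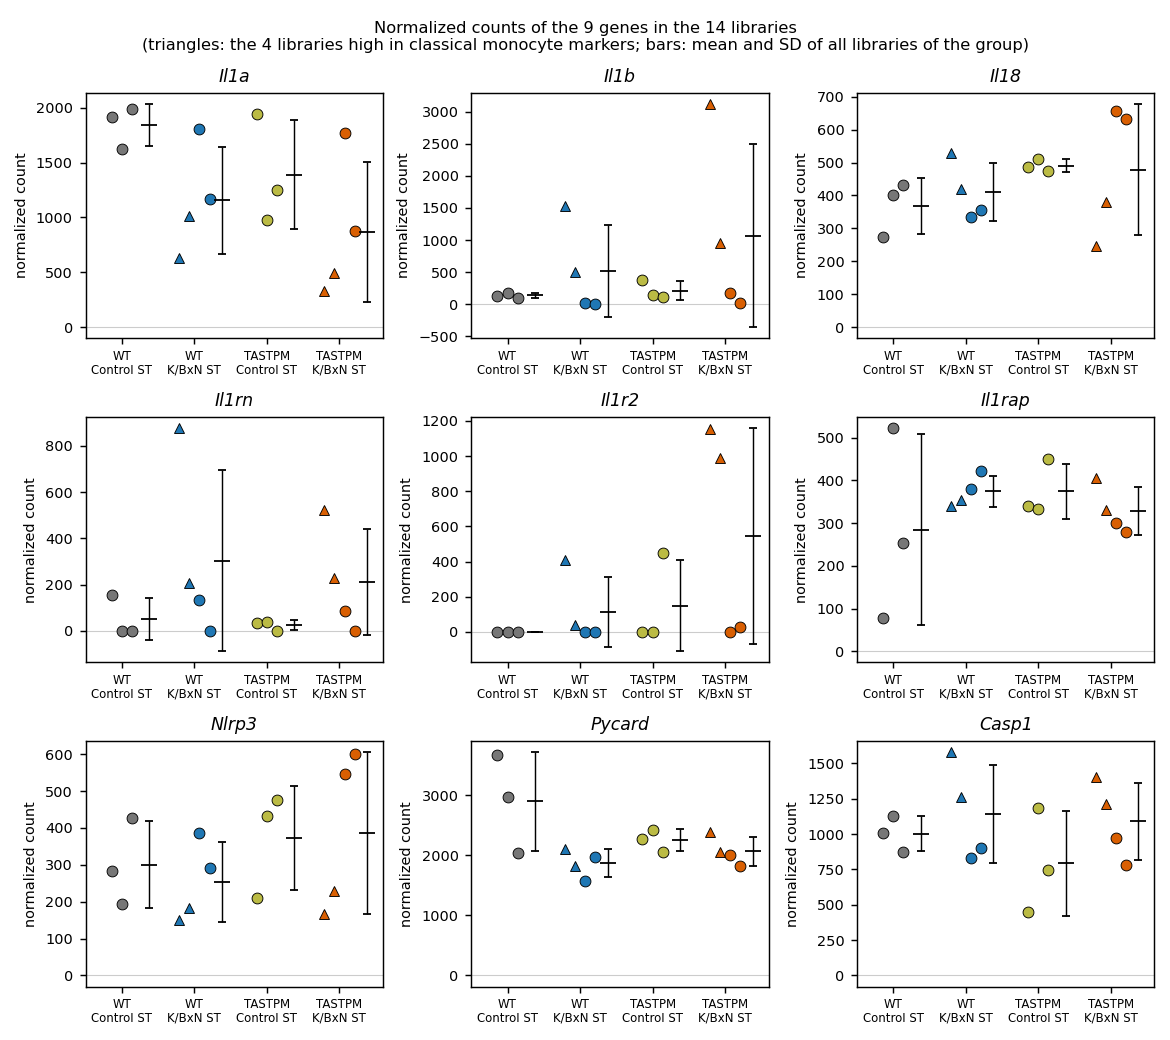
Normalized counts of each of the 9 genes (y axis, linear) by group (x axis), 1 point per library, with the mean and SD of each group beside its points. Triangles mark the 4 K/BxN ST libraries high in classical monocyte markers, which hold the highest 4 values of Il1b, Il1rn and Casp1 and the lowest 3 of Il1a.

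Il1b encodes interleukin-1β and had the widest spread of the cytokine genes. WT K/BxN ST libraries held 1529, 510.1, 17.9 and 1.09 normalized counts of it, the last being a single read, and their controls (WT Control ST) held 131, 182 and 104.1. Thus 2 of the K/BxN ST libraries lay above every Control ST library and 2 below every one of them. TASTPM K/BxN ST libraries held 3122, 952, 182 and 24.8, and their controls (TASTPM Control ST) 378, 142 and 114. In TASTPM again 2 K/BxN ST libraries were above the range of the controls and 1 was below it. Means were 515 ± 716 (SD, n = 4) against 139 ± 39.5 (SD, n = 3) in WT and 1070.2 ± 1426 (SD, n = 4) against 212 ± 145 (SD, n = 3) in TASTPM.

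The log2 fold change of Il1b in limma, fitted to log2(normalized count + 1), was -0.87 (SE 1.88, adjusted p = 0.921) in WT and 0.90 (SE 1.88, adjusted p = 0.970) in TASTPM. The direction in WT was not stable: edgeR on the recovered reads gave 1.92 (adjusted p = 0.893) and DESeq2 1.90 (adjusted p = 0.865), and limma gave 0.85 without WT K/BxN ST replicate 4. In TASTPM it was -0.16 without replicate 1 of K/BxN ST. All 4 libraries high in monocyte markers had more Il1b, 510.1 to 3122, than the other 10, 1.09 to 378. Without these 4, chosen after the marker values were seen, the log2 fold change was -4.44 in WT (SE 1.14, limma adjusted p = 1) and -1.42 in TASTPM (SE 1.14, adjusted p = 0.996). The WT value then rested on 2 K/BxN ST libraries with 15 reads and 1 read, against 109 to 217 reads in the controls, and these 2 differed from the controls in sex-linked reads as well. With the sex-linked covariate and all libraries it was 0.25.

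Il1a encodes interleukin-1α, which needs no inflammasome to signal. It was at 633, 1011, 1802 and 1171 normalized counts after K/BxN ST in WT, and the WT controls were at 1917, 1624 and 1986. A total of 3 of the 4 K/BxN ST libraries lay below every control. The TASTPM values after K/BxN ST were 332, 496, 1766 and 875, and those of the TASTPM controls 1943, 975 and 1253. Here too 3 of the 4 were below every control, and the third K/BxN ST library lay within their range. The log2 fold changes of Il1a were -0.77 (SE 0.47, limma adjusted p = 0.755) in WT and -0.91 (SE 0.47, limma adjusted p = 0.964) in TASTPM. The 2-sided exact permutation test over the 7 libraries of a genotype gave an unadjusted p of 0.0857 in WT and 0.2 in TASTPM, where 0.0286 is the smallest that 4 against 3 libraries allow. Without the 4 libraries high in monocyte markers, in which Il1a was at 332 to 1011, the log2 fold changes were -0.34 in WT (SE 0.36) and -0.10 in TASTPM (SE 0.36), less than 1 SE from 0.

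The balance of the pair shifted with the markers. Il1b, as a share of the sum of Il1a and Il1b per kb of exon, was 6.57 to 13.1% in WT Control ST and 10.9 to 20.7% in TASTPM Control ST. In the 4 libraries high in monocyte markers the share was 40.3 to 92.7%. In the other 4 K/BxN ST libraries it was 0.125 and 1.31% in WT and 3.66 and 12.1% in TASTPM. The K/BxN ST libraries therefore lay on both sides of the control range in WT, with none inside it.

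**Figure D2:**
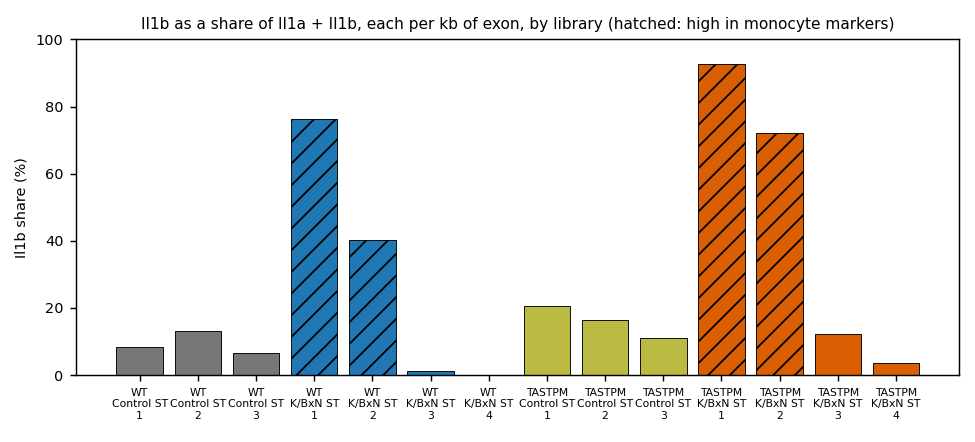
Il1b as a percent of Il1a plus Il1b, each in normalized counts per kb of exon, in each of the 14 libraries (x axis, by group and replicate). Hatched bars are the 4 libraries high in classical monocyte markers, at 40.3 to 92.7%, and every other bar is at or under 20.7%.

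Il18 encodes interleukin-18 and was steadier. WT libraries held 530.2, 421, 334 and 355 normalized counts after K/BxN ST, and the WT controls 273, 401 and 433. The values overlapped, with a log2 fold change of 0.16 (SE 0.35, limma adjusted p = 0.923). TASTPM libraries held 246, 379.5, 657 and 633 after K/BxN ST, around the narrow control range of 486, 512 and 474. Both libraries high in monocyte markers were below that range and both others above it, so the log2 fold change of -0.14 (SE 0.35, limma adjusted p = 0.976) joined values on either side, and without the 4 libraries it was 0.39 (SE 0.34, adjusted p = 0.996) in TASTPM and -0.07 (SE 0.34, adjusted p = 1) in WT.

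Il1rn encodes the interleukin-1 receptor antagonist, which occupies the receptor without signalling. After K/BxN ST it was at 877, 205, 131 and 0 normalized counts in WT, where the controls held 157, 0 and 0. After K/BxN ST in TASTPM it was at 524, 228, 86.9 and 0, where the controls held 35.5, 40.0 and 0. In each genotype the K/BxN ST libraries thus ran from 0 to the highest values. A count of 0 allows up to 2.51 to 3.58 normalized counts, the worth of 3 reads, for counting error alone. Il1rn was at 0 in 5 of the 14 libraries, and as many libraries or more were at 0 for 28 of the 3255 tested genes (0.860%) whose mean is within 2 times its own. The log2 fold changes were 3.70 (SE 2.58, limma adjusted p = 0.774) in WT and 2.32 (SE 2.58, limma adjusted p = 0.964) in TASTPM, with 95% intervals from -1.81 to 9.21 and from -3.19 to 7.83. The omission of single libraries moved them over 2.48 to 6.13 in WT, highest without Control ST replicate 1, and over 0.56 to 4.26 in TASTPM, lowest without Control ST replicate 3 and highest without K/BxN ST replicate 4. Il1rn was at 205 to 877 in the 4 libraries high in monocyte markers and at 0 to 157 in the other 10, and without the 4 the log2 fold change was 1.09 in WT and -0.29 in TASTPM (SE 2.99 in both).

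Il1r2 encodes the decoy receptor for interleukin-1, a receptor without a signalling domain that is abundant on neutrophils. The 4 WT libraries of K/BxN ST held 408, 40.7, 0 and 0 normalized counts, and the 3 WT controls held 1 read in all (0.937 normalized counts). The ratio of the pooled levels, 498 reads to 1 read, was 413 with a 95% exact counting interval of 73.7 to 16333, which covers counting error only and not the spread between libraries. All 498 reads were in the 2 libraries high in monocyte markers. Without replicate 1 of K/BxN ST 46 reads stood against 1, a ratio of 52.8 (9.01 to 2129), and without both it was 0 reads against 1. The TASTPM libraries of K/BxN ST held 1156, 991, 2.35 and 28.2, and the TASTPM controls 0, 0 and 449.8. The high control library had 0.0975% of its reads on monocyte markers and 0.0407% on neutrophil markers, within the range of the libraries low in both. Its share of border-associated macrophage markers, 0.0116%, was the highest of the 10, and it was 1 of the 2 libraries with reads of both Xist and Y-linked genes. The fitted log2 fold changes, which depend on the added count of 1, were 3.20 (SE 2.62, limma adjusted p = 0.789) in WT and 3.75 (SE 2.62, limma adjusted p = 0.964) in TASTPM. The omission of single libraries moved them over 1.48 to 4.37 in WT, lowest without K/BxN ST replicate 1, and over 2.28 to 6.69 in TASTPM, highest without Control ST replicate 3. edgeR gave 8.06 (adjusted p = 0.760) in WT and 1.88 (adjusted p = 0.996) in TASTPM. Without the 4 libraries the limma values were -0.32 and 0.37 (SE 2.56 in both).

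Il1rap encodes the accessory chain of the interleukin-1 receptor, which the interleukin-33 and interleukin-36 receptors also use. K/BxN ST libraries of WT mice were at 341, 354, 379 and 422 normalized counts, all inside the wide control range of 78.7, 522 and 253. Those of TASTPM mice were at 406, 330.1, 299.6 and 279, and 3 of these were below the control values of 339, 333 and 449. The log2 fold changes were 0.77 (SE 0.47, limma adjusted p = 0.756) in WT and -0.19 (SE 0.47, limma adjusted p = 0.977) in TASTPM. The WT value rested on the control library with 78.7, and it was 0.04 without that library. Levels in the 4 libraries high in monocyte markers, 330.1 to 406, lay within those of the other 10, 78.7 to 522.

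Nlrp3 encodes the sensor of the best studied inflammasome. WT mice had 149.9, 182, 387 and 292 normalized counts after K/BxN ST and 282, 193 and 427 after control serum. TASTPM mice had 165, 230.2, 547 and 600.2 after K/BxN ST and 211, 432 and 475 after control serum. In both genotypes the 2 lower K/BxN ST values were those of the libraries high in monocyte markers. The log2 fold changes of Nlrp3 were -0.27 (SE 0.52, limma adjusted p = 0.910) in WT and -0.07 (SE 0.52, limma adjusted p = 0.992) in TASTPM. Without the 4 libraries both were positive, at 0.24 (SE 0.48, adjusted p = 1) and 0.71 (SE 0.48, adjusted p = 0.996).

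Pycard encodes ASC, the adaptor between sensor and caspase. It was the most abundant member and the one with the smallest spread. WT mice had 2105, 1815, 1566 and 1971 normalized counts after K/BxN ST and 3668, 2975 and 2035 after control serum. The groups overlapped through 1 library of each, and 3 of the 4 K/BxN ST libraries lay below every control. The log2 fold change in WT was -0.60 (SE 0.21, 95% interval -1.04 to -0.16), with an unadjusted limma p of 0.0109, an adjusted p of 0.605 and an unadjusted exact permutation p of 0.0571. It was -0.68 (SE 0.25, adjusted p = 1) without the 4 libraries, and the marker range did not separate Pycard, with 1815 to 2389 in those 4 and 1566 to 3668 in the other 10. TASTPM mice had 2389, 2045, 2001 and 1816 after K/BxN ST and 2272, 2411 and 2048 after control serum, with a log2 fold change of -0.13 (SE 0.21, limma adjusted p = 0.969).

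Casp1 encodes caspase-1. WT mice had 1579, 1262, 833 and 901 normalized counts after K/BxN ST and 1006, 1125 and 876 after control serum. Of the 4, 2 were above the controls, 1 within them and 1 below. TASTPM mice had 1403, 1209, 970.4 and 782 after K/BxN ST and 447, 1182 and 745 after control serum, and 2 of the 4 lay above the control range. The log2 fold changes were 0.15 (SE 0.33, limma adjusted p = 0.921) in WT and 0.54 (SE 0.33, limma adjusted p = 0.964) in TASTPM. The libraries high in monocyte markers had 1209 to 1579 and the other 10 had 447 to 1182, and without the 4 the values were -0.20 (SE 0.37) in WT and 0.25 (SE 0.37) in TASTPM.

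Over all 9 members, 0 were called in either serum comparison by limma (adjusted p under 0.05 and absolute log2 fold change above 1), beside 0.00791% of tested genes in WT and 0% in TASTPM. On the recovered reads edgeR and DESeq2 also called 0 of the 9, where edgeR called 0% of tested genes and DESeq2 1% in WT and 0.127% in TASTPM. At an unadjusted p under 0.05, limma had 0 members higher and 1 lower (Pycard) in WT, where 4.77% of tested genes were higher and 2.36% lower, and 0 in TASTPM, where 2.62% were higher and 1.6% lower. No member had groups that did not overlap, while 3.67% of tested genes in WT had all 4 K/BxN ST values above the controls and 3.71% all below, and 2.67% and 2.74% did so in TASTPM. In WT 5 members had a positive log2 fold change and 4 a negative one, with a median of 0.15 beside 0.06 over all genes tested. In TASTPM 4 were positive and 5 negative, with a median of -0.07 beside 0.01. Il1b, Il1rn and Casp1, 3 of the 9, had every one of the 4 libraries high in monocyte markers above every other library, which 7.63% of tested genes had, and 0 had them all below, which 2.51% had. Without the 4 libraries, Il1b and Pycard were lower in WT at an unadjusted p under 0.05, as were 1.85% of tested genes.

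**Figure D3:**
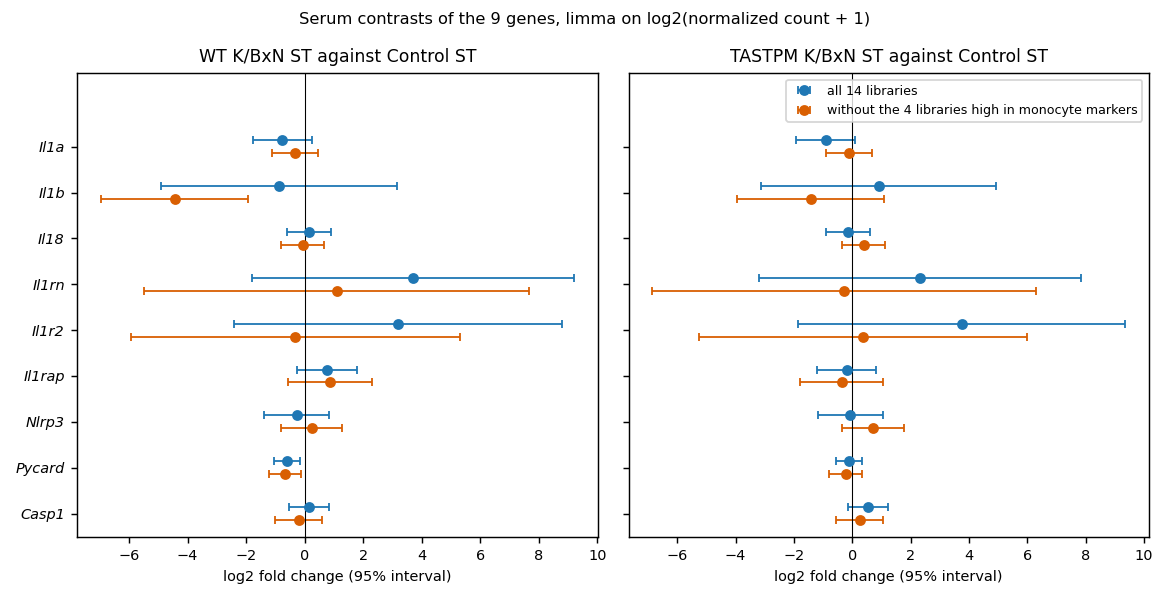
Log2 fold changes (x axis) of K/BxN ST against Control ST for the 9 genes in WT (left) and TASTPM (right), with 95% intervals from limma, over all 14 libraries and without the 4 high in monocyte markers. Every interval over all libraries spans 0 but that of Pycard in WT, and Il1b in WT moves from -0.87 to -4.44.

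**Figure D4:**
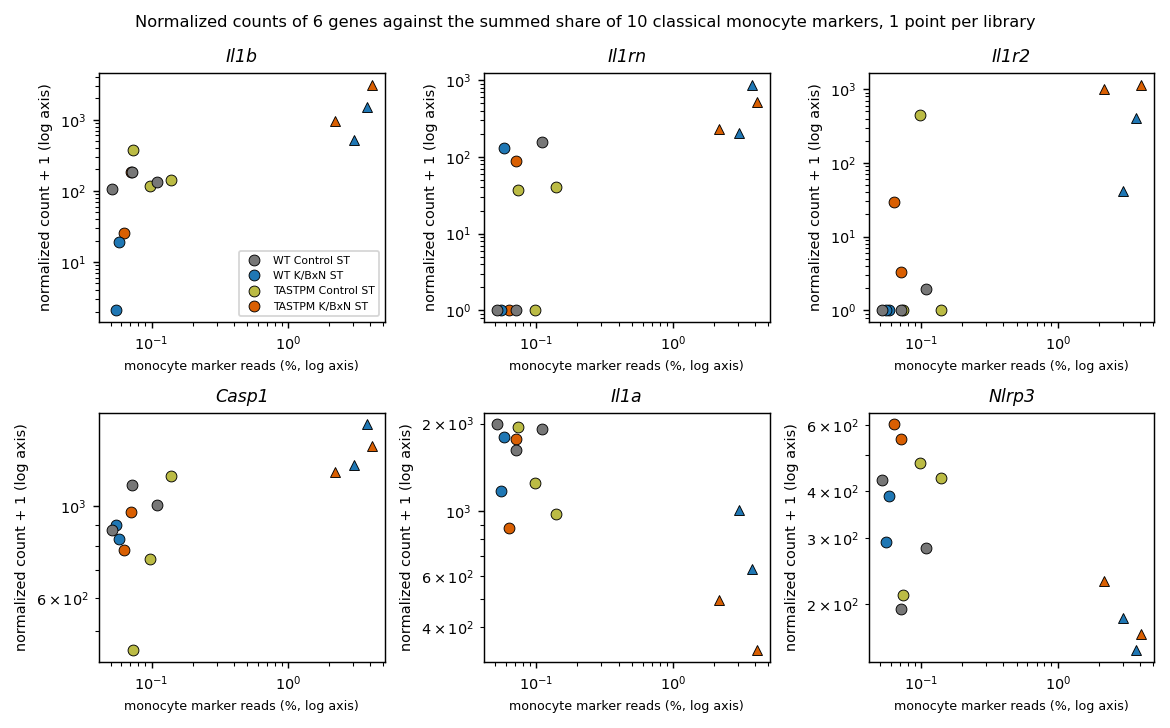
Normalized counts + 1 (y axis, log) of Il1b, Il1rn, Il1r2, Casp1, Il1a and Nlrp3 against the percent of reads on 10 classical monocyte markers (x axis, log), 1 point per library. The 4 triangles at 2.20 to 4.12% lie above all other points for Il1b, Il1rn and Casp1, while for Il1r2 1 TASTPM Control ST library at 449.8 normalized counts lies among them.

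Whether the serum response of a member differed between genotypes was tested by the interaction of genotype and serum. By limma 0 of the 9 members were called, as were 0% of tested genes, and 0 had an unadjusted p under 0.05, which 3.04% of tested genes had. The lowest unadjusted limma p of a member was 0.124. The 95% intervals of the difference were wide, from -3.92 to 7.46 for Il1b and from -2.38 to 0.48 for Il1rap, so the test does not show that the genotypes responded alike. TASTPM against WT called 0 of the 9 under Control ST and 0 under K/BxN ST, as for 0% of tested genes in each. Here too 0 members had an unadjusted p under 0.05, beside 5.57% of tested genes under Control ST and 1.91% under K/BxN ST, and the lowest p were 0.156 and 0.190. The 2 genotype comparisons share libraries with the serum comparisons. Without the 4 libraries high in monocyte markers, and so with 2 libraries against 2, Il18 and Il1b were higher in TASTPM K/BxN ST than in WT K/BxN ST at an unadjusted limma p under 0.05, as were 1.69% of tested genes. Il18 was at 657 and 633 against 334 and 355 normalized counts, a log2 fold change of 0.90 (SE 0.37, limma adjusted p = 1). For Il1b it was 3.45 (SE 1.25, limma adjusted p = 1), from 182 and 24.8 against 17.9 and 1.09. The TASTPM library with 182 had Y-linked reads alone, while the other TASTPM library and both WT libraries had Xist reads alone. Il18 and Il1b were named after their values were seen.

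Of 43 other genes of the pathway, 35 were in the deposited values and 34 passed the minimum of reads: 2 ligands or soluble regulators, 5 receptors, 11 receptor adaptors or kinases and 16 inflammasome genes. By limma 0 of the 34 were called in either genotype, as by edgeR, while DESeq2 called 2 of 34 in WT (Il18rap and Nlrc4), where it called 127 of the 12645 tested genes (1%), and 0 in TASTPM, where it called 16 (0.127%). DESeq2 also called Il18rap in the interaction and in TASTPM against WT under Control ST, where it called 12 (0.0949%) and 41 (0.324%) of all tested genes and limma and edgeR called 0%. At an unadjusted p under 0.05, 3 were higher and 0 lower in WT, and 1 was higher and 0 lower in TASTPM, beside 4.77% and 2.36% of all tested genes in WT and 2.62% and 1.6% in TASTPM. Leaving out the 4 libraries high in monocyte markers gave 0 higher and 1 lower in WT (Gsdmd, named after its value was seen) and 0 of either in TASTPM, beside 2.4% and 1.85% of all tested genes in WT and 1.83% and 2.2% in TASTPM. In WT 21 had a positive and 13 a negative log2 fold change, with a median of 0.12 beside 0.06 over all genes tested, and in TASTPM 17 were positive and 17 negative, with a median of 0.04 beside 0.01.

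Among the 34, the smallest unadjusted p in WT were those of Irak3, Nlrc4 and Il18rap. Irak3 encodes a kinase-like protein that restrains signalling from the interleukin-1 and Toll-like receptors. WT mice had 878, 556, 297 and 334 normalized counts after K/BxN ST and 1.87, 114 and 157 after control serum. The groups did not overlap, with a log2 fold change of 3.65 (SE 1.16, limma adjusted p = 0.568) that was 3.08 (SE 1.52) without the 4 libraries. It rested on the control library with 1.87, without which it was 1.80. TASTPM mice had 695, 577, 105 and 267 after K/BxN ST and 78.3, 139 and 19.1 after control serum, with a log2 fold change of 2.43 (SE 1.16, limma adjusted p = 0.964) that was 1.47 (SE 1.52) without the 4 libraries. The 4 libraries high in monocyte markers held its 4 highest values.

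Nlrc4 encodes an inflammasome sensor for bacterial flagellin and secretion systems. WT mice had 240.3, 126, 8.36 and 4.36 normalized counts after K/BxN ST and 0, 0.838 and 0.955 after control serum. The groups did not overlap, though the controls held 2 reads in all against 419, a ratio of 174 with a 95% exact counting interval of 47.8 to 1438, for counting error only. Without the 2 libraries high in monocyte markers 11 reads stood against 2, a ratio of 10.4 with an interval of 2.26 to 96.3. The fitted log2 fold change was 4.52 (SE 1.75, limma adjusted p = 0.668) in WT and 1.58 (SE 1.75, limma adjusted p = 0.964) in TASTPM, and without the 4 libraries 2.21 and -0.70 (SE 1.88 in both). Il18rap encodes the accessory chain of the interleukin-18 receptor and stood at 232, 33.7, 0 and 90.5 after K/BxN ST and at 0 in all 3 controls of WT mice. For counting error only, its mean was at least 32.6-fold higher after K/BxN ST, taking 3 reads for each control library. It was at least 15.2-fold higher without replicate 1 of K/BxN ST and 16.6-fold without the libraries high in monocyte markers. The spread between libraries is not covered by these bounds. The fitted log2 fold change, which is no bound, was 4.87 (SE 2.19, limma adjusted p = 0.684) and 3.26 (SE 2.66) without the 4 libraries. In TASTPM Il18rap was at 228, 185, 0 and 41.7 after K/BxN ST and at 0, 0 and 103 after control serum, the last in the same library that was high in Il1r2.

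Mefv encodes pyrin, an inflammasome sensor made by neutrophils and monocytes. It was the 1 pathway gene that did not reach the minimum of reads, and in a fit apart its unadjusted limma p ranked among the 3 smallest in both genotypes. After K/BxN ST it was at 826, 358, 1.19 and 16.4 normalized counts in WT and at 1071, 377, 1.17 and 1.13 in TASTPM, and all 6 Control ST libraries were at 0. The 4 high values were those of the libraries high in monocyte markers. For counting error only, its mean was at least 110.0-fold higher in WT and 118-fold higher in TASTPM, taking 3 reads for each control library. Without replicate 1 of K/BxN ST it was at least 45.8-fold and 41.2-fold higher. With the 4 libraries left out it was at least 3.21-fold in WT, where 1 library held 15 of the 16 reads, and below that floor in TASTPM. Its fitted log2 fold changes were 5.86 (SE 2.30, limma adjusted p = 0.667) and 5.21 (SE 2.30, limma adjusted p = 0.964), and 2.63 and 1.11 (SE 1.78 in both) without the 4. DESeq2 run over all genes, with no minimum of reads, called it in both genotypes (adjusted p = 0.00962 and 0.0179), where it called 275 (1.92%) and 88 (0.614%) of 14329 genes.

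In TASTPM the smallest unadjusted p among the 34 were those of Irak1, Irak3 and Myd88. Irak1 encodes a kinase of the same receptors. TASTPM mice had 1666, 1449.6, 1765 and 1257 normalized counts after K/BxN ST and 1074, 938 and 943 after control serum. These groups did not overlap, and the log2 fold change was 0.63 (SE 0.23, limma adjusted p = 0.964), beside 0.03 (SE 0.23, limma adjusted p = 0.984) in WT. In WT it was at 1842, 1624, 1713 and 1220 after K/BxN ST and at 2041, 1612 and 1140 after control serum, so that all 3 TASTPM controls lay below every WT library. TASTPM against WT was -0.66 (SE 0.24, limma adjusted p = 0.760) under Control ST and -0.06 (SE 0.21, limma adjusted p = 1.00) under K/BxN ST. Myd88 encodes the adaptor on which both receptor families depend, and had 7735, 2763, 2408 and 1832 after K/BxN ST and 1772, 1797 and 1517 after control serum in TASTPM. Its log2 fold change was 0.88 (SE 0.44, limma adjusted p = 0.964) in TASTPM and 0.46 (SE 0.44, limma adjusted p = 0.809) in WT, and 0.31 and -0.17 (SE 0.21 in both) without the 4 libraries. The TASTPM value was 0.44 without K/BxN ST replicate 1.

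**Figure D5:**
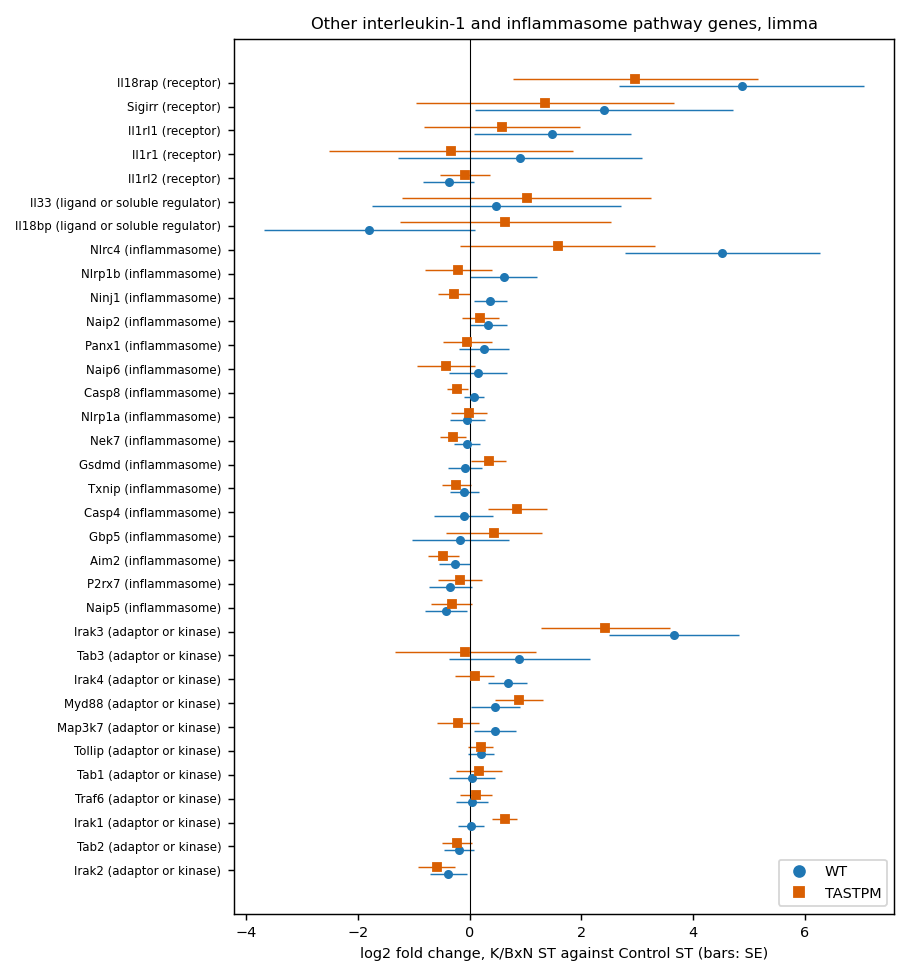
Log2 fold changes of K/BxN ST against Control ST (x axis) of the 34 other pathway genes that passed the minimum of reads (y axis, with their role), in WT (circles) and TASTPM (squares), with SE from limma. Of the 34, Irak3, Il18rap and Nlrc4 stand furthest to the right in WT, and most of the others lie within 1 of 0.

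Genes with the most similar pattern were found for each member by Spearman correlation of normalized counts over the 14 libraries, as a description, since libraries share depth, amplification and the marker gap given above. For Il1b they were Npm1 (rho 0.938), Fam111a (0.938) and Atp5o (0.934), and for Il1rn Ndufa3 (0.960), Cox5a (0.946) and Psma2 (0.946). All 6 were higher in each of the 4 libraries high in monocyte markers than in any of the other 10. For Casp1 Gm5854 (0.956) and Rpl38 (0.943) were among the nearest, and for Il1r2 the nearest were Limd1 (0.920), Plin2 (0.897) and Ier2 (0.892). Rpl38, Limd1, Plin2 and Ier2 were also higher in each of those 4 libraries than in any other. For Il1a the nearest were Pdia4 (0.938), B4galt4 (0.925) and Sting1 (0.908), all lower in each of those 4 libraries than in any other. Nlrp3 was nearest to Agpat3 (0.908), Arhgap39 (0.903) and Osbpl11 (0.899), and Il18 to Klhl28 (0.846), Tmem67 (0.837) and Arrb2 (0.785). Of these, Arhgap39 and Osbpl11 were lower in each of the 4 libraries. Il1rap was nearest to Gm21781 (0.873), Lsm1 (0.873) and Gab3 (0.832), and Pycard to Tmem191c (0.836), Cacybp (0.833) and Gm43817 (0.831).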

How the data were processed

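The authors amplified cDNA with SMART-Seq v4, aligned reads with HISAT2 2.1 to GRCm39 and counted them per gene with featureCounts 1.5.2. What the authors deposited is a normalized signal, reads per gene over 1 factor per library. Whole reads were recovered for 100% of values (tolerance 0.01 of a read). Of 14336 entries, 7 were repeats, and 34 genes lack a symbol. Groups were taken from the column headers. TASTPM K/BxN ST replicates carry their label numbers, and the others are numbered in the order of the deposited values.

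The 12645 genes with 10 or more reads in 7 or more of 14 libraries were tested with limma 3.58.1 (R 4.3.3, trended prior variance) on log2(normalized count + 1), which understates changes of low genes, in 1 fit of 4 groups with Benjamini-Hochberg adjustment over all tested genes. Calls needed an adjusted p under 0.05 and an absolute log2 fold change above 1. The script was tested on simulated data. edgeR 4.0.16 and DESeq2 1.42.0 were run on the recovered reads, since the deposited unit is a signal. Exact permutation tests (2-sided, 18 in all, unadjusted) and Spearman correlations were made in Python 3.11.15. Other alternatives changed the scaling (TMM, library totals), pseudocount (0.5 or 5), filter, trend, libraries fitted and covariates, or left out libraries.

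The members, marker and pathway lists were chosen with earlier results of these data known. The 9 members are named in both serum comparisons and elsewhere only at an unadjusted limma p under 0.05, pathway genes if called or else as the 3 with the smallest unadjusted p per serum comparison, and the 3 nearest genes in pattern by rho. Some items are not reported here. Of the other lists, 1 of 7 lymphocyte markers was present, Cd79a, and took at most 0.00149% of reads in any library. It was at 21.3 to 244 normalized counts in the 4 libraries high in monocyte markers and at 0 to 44.9 in the others. Immediate early genes took 0.0619 to 0.146%. Positions, exon lengths and promoter windows are from GRCm39 with GENCODE vM39, a later annotation than that of the authors.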

Additional observations from a re-analysis of the deposited data

Results flagged for a closer look

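Each group of 4 libraries was examined for 1 library far from the others with Dixon's ratio, in 18 combinations of member and group, where chance flags about 1 in 20. Of the 18, 1 was flagged, near that rate: Il1r2 in WT K/BxN ST. The rate holds for normally distributed values, which these counts need not be. Replicate 1 was at 408 normalized counts and the next library at 40.7, a gap of 0.900 of the whole range. In that library the classical monocyte markers took 3.78% and the neutrophil markers 1.40% of the reads. Their part in the value was not tested. No member had an interaction of genotype and serum at an adjusted limma p under 0.05 (0 of 9, also 0 at an unadjusted p under 0.05, and 0 called by edgeR or DESeq2), beside 3.04% of tested genes at that unadjusted p and 0.0949% called by DESeq2.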

How the results depend on the processing

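No member was called under any of the alternatives in either serum comparison, and the lowest adjusted p was 0.117 (Pycard in WT, DESeq2 without a filter on low counts). Of the 18 serum log2 fold changes of members, 8 kept their sign under every alternative run and 10 did not.

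Over all tested genes limma called 1 gene in WT, and 0 with a pseudocount of 5, with the libraries of the comparison alone, by edgeR, with the neutrophil and monocyte marker covariate or without the 4 monocyte-marker libraries, 2 with no trend, 127 by DESeq2, 275 by DESeq2 without a filter, and 0 to 17 when each library was left out. In TASTPM limma called 0, DESeq2 16, DESeq2 without a filter 88, and the omission of each library gave 0 to 1. For the interaction these were 0, 12, 36 and 0 to 3. For TASTPM against WT under Control ST they were 0, 41, 84 and 0 to 11, with 1 under the marker covariate, 1 under the sex-linked covariate and 1 without the 4 libraries. Pathway genes called in WT were 0 by limma, 2 by DESeq2 (Il18rap and Nlrc4) and 3 by DESeq2 without a filter (with Mefv), and in TASTPM 0, 0 and 1 (Mefv). For the interaction and for TASTPM against WT under Control ST they were 0, 1 and 1 (Il18rap). The causes were not tested.

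Signs turned as follows. Il1b in WT was 1.92 by edgeR, 1.90 by DESeq2, 1.89 by DESeq2 without a filter and 0.25 with the sex-linked covariate, and in TASTPM -2.10 with the marker covariate, -1.61 with the sex-linked covariate and -1.42 without the 4 libraries. Without the 4 libraries Il18 was -0.069 in WT and 0.39 in TASTPM (0.056 with the marker covariate). Il1r2 in WT was -0.24 with the marker covariate and -0.32 without the 4, and in TASTPM -0.26 with the marker covariate. Il1rn in TASTPM was -0.47, -0.14 and -0.29 with the marker covariate, the sex-linked covariate and without the 4. Casp1 in WT was -0.18 and -0.20 with the marker covariate and without the 4. Nlrp3 in WT was 0.30 and 0.24 under the same, and in TASTPM 0.046 by edgeR, 0.048 by DESeq2 and 0.048 by DESeq2 without a filter, 0.60 with the marker covariate, 0.33 with the sex-linked covariate and 0.71 without the 4. Leaving out single libraries gave ranges of -2.32 to 0.85 for Il1b, -0.045 to 0.29 for Il18, -0.55 to 0.016 for Nlrp3 and -0.022 to 0.29 for Casp1 in WT, and of -0.16 to 2.15 for Il1b, -0.33 to 0.14 for Il18 and -0.44 to 0.27 for Nlrp3 in TASTPM. The others kept their sign, over -1.01 to -0.51 for Il1a, 0.035 to 1.39 for Il1rap and -0.83 to -0.41 for Pycard in WT, and over -1.35 to -0.54 for Il1a, -0.29 to -0.048 for Il1rap, -0.20 to -0.066 for Pycard and 0.18 to 0.88 for Casp1 in TASTPM, beside Il1rn and Il1r2, whose ranges are given above.

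No paired analysis was possible because the groups share no replicate numbers in the labels. Groups of 3 and 4 libraries from 2000 cells each limit what can be seen: the 95% interval of Il1b reached from -4.90 to 3.15 in WT.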
